A study of Rattus norvegicus with 9 samples.

Results

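Teneurins, latrophilins and the latrophilin ligand Flrt3 were followed in rat retinal ganglion cells, the projection neurons whose axons form the optic nerve. The set held 8 listed genes, Tenm1, Tenm2, Tenm3, Tenm4, Adgrl1, Adgrl2, Adgrl3 and Flrt3. Every transcript cluster (the array's set of probes for a transcript) that was annotated with exactly 1 of these symbols was kept separately. This gave 8 of the 36685 clusters in the deposited table, for 7 of the 8 genes. Tenm3 had 2 clusters, and Tenm1, for which the annotation used here paired no cluster, was not analysed here. The set was selected on the measured level of Tenm3, which was lower in cells given myr-Set-β than in controls. The values of that comparison are therefore given as a description, without a test.

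Expression was measured on 9 Affymetrix Rat Gene arrays, 3 in each of 3 groups. The groups were myr-SetB, transfected with myr-Set-β (Set-β directed to membranes by myristoylation, the attachment of a fatty acid), wt-SetB, transfected with wild-type Set-β, and mCherry, transfected with the red fluorescent protein mCherry as the control. All groups came from Sprague Dawley rats of postnatal day 4, whose ganglion cells were immunopanned, co-transfected with the green fluorescent protein plasmid pMAX-GFP, sorted for green fluorescence the next day and cultured until RNA extraction 3 days after transfection. The array titles call the 3 arrays of a group biological replicates, but no label says that they came from separate litters or cultures. The p-values therefore cover only array-to-array spread, and how much of that spread is technical is not known. The cells also carried their own Set gene. Whether Set-β changes these wiring genes is the question that the comparisons address.

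Teneurins are large single-pass membrane proteins that bind each other across cell contacts and also bind latrophilins, a family of adhesion G-protein-coupled receptors. Latrophilins in addition bind FLRT proteins, leucine-rich repeat membrane proteins that themselves bind the repulsive netrin receptors of the Unc5 family. Such contacts guide axons and select synaptic partners. In mice Tenm3 is needed for correct mapping of the retinal projection from the same-side eye, and in zebrafish it acts in the dendrite layering of ganglion cells.

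Values are log2 intensities. On a linear scale the median of each array was 100. A cluster's level depends on its probes, so levels were compared between arrays and not between clusters. The words brighter and dimmer serve only to name the 2 Tenm3 clusters. The width of the signal range (the 90th minus the 10th percentile of an array's log2 values) ran from 3.82 to 4.46 in myr-SetB, from 4.12 to 4.21 in wt-SetB and from 4.29 to 4.54 in mCherry. In the fit of all 9 arrays the median difference over the 18343 clusters past the level filter was -0.16 for myr-SetB minus mCherry and -0.18 for wt-SetB minus mCherry, and 0.01 for myr-SetB minus wt-SetB. After quantile normalization these medians were -0.03, -0.03 and -0.01. The median signal of 236 odorant receptor clusters, genes not known as ganglion cell genes, served as a mark of background and lay between 6.81 and 7.61 over the arrays. Only odorant receptor clusters past the level filter entered this median, so it may overstate the background. The median of all 1128 odorant receptor clusters lay between 5.34 and 5.93, and every member cluster lay above it on every array. Below, the odorant receptor median means that of the 236 clusters unless all 1128 are named.

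All 11 ganglion cell markers examined passed the level filter, and 7 lay above the odorant receptor median on every array. Their summed linear intensity was 5005 to 9171 in myr-SetB, 5344 to 8667 in wt-SetB and 7645 to 13397 in mCherry. Their median difference was -0.600 for myr-SetB minus mCherry and -0.545 for wt-SetB minus mCherry, with 11 of 11 below 0 in each. Of the 10 amacrine and horizontal cell markers, 6 lay below the odorant receptor median on all 9 arrays, among them Gad1 and Chat, whereas the glycine transporter gene Slc6a9 lay above it on all 9 and 4 passed the level filter. The summed intensity of that list was 983 to 1117 in myr-SetB, 936 to 1013 in wt-SetB and 1046 to 1349 in mCherry. The 7 microglia markers summed to 875 to 902 in myr-SetB, 775 to 982 in wt-SetB and 629 to 785 in mCherry, so that the myr-SetB sums lay above the mCherry sums. Of these markers 0 lay above the odorant receptor median on all 9 arrays and 2 lay below it on all 9. For the 5 past the level filter, myr-SetB minus mCherry was 0.68 (Cx3cr1), 0.66 (C1qa), 0.10 (C1qb), 0.04 (Aif1) and 0.03 (Csf1r). Of 7 glia markers 6 had a cluster, 4 of them below the odorant receptor median on every array, and the sums ran widely within each group, from 888 to 4702 in myr-SetB, 639 to 3993 in wt-SetB and 833 to 5098 in mCherry. Vim, which encodes the intermediate filament vimentin, had 10.61 ± 1.95 in myr-SetB, 10.26 ± 2.12 in wt-SetB and 10.77 ± 1.90 in mCherry (SD, n = 3 each). The 5 measured endothelial, mural and fibroblast markers summed to 687 to 1235 in myr-SetB, 604 to 1037 in wt-SetB and 524 to 1444 in mCherry. The 5 measured photoreceptor and bipolar markers lay below the odorant receptor median on all 9 arrays. What part such cells have in the differences described here was not tested.

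The brighter Tenm3 cluster carried the widest differences of the set, and the dimmer one did not. The RefSeq start region of Tenm3 on chromosome 16 is shown because this gene gave the set its selection (assembly GRCr8, chr16:50260539-50260838, plus strand, 250 bases before to 50 after the annotated start). Capitals mark a cyclic AMP response element, the motif bound by the activity-dependent factor CREB.
Tenm3: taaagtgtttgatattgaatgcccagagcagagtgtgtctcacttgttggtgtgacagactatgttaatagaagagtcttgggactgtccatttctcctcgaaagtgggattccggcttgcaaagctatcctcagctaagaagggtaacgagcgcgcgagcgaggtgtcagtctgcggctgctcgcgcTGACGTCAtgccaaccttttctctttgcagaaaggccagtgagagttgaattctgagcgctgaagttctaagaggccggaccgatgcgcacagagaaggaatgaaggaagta

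The 8 letters TGACGTCA read the same on both strands and began at base 189 of the window. They were found in 612 of 33469 rat RefSeq start regions of the same length (1.83%). Start regions of 6 of the 8 genes were at hand, and Tenm3 was the only one of the 6 with this motif. The other motifs searched on both strands, which do not share letters with it in this window, were the GC box GGGCGG (33.1% of all start regions), the CACC box CACCC (54.9%), the TATA box TATAAA (14.2%) and the E-box CACGTG (6.42%). None of these 4 was in the Tenm3 window. Flrt3 held CACCC at 2 places and Adgrl2 held TATAAA once, while the windows of Tenm1, Tenm2 and Tenm4 held none of the 5 motifs. Long genes such as teneurins can have several start sites, and a match describes the letters of 1 window only.

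The brighter Tenm3 cluster (17707774) had log2 intensities of 7.08, 7.28 and 7.57 in myr-SetB replicates 1, 2 and 3, of 8.12, 7.68 and 7.45 in wt-SetB, and of 9.02, 8.17 and 8.25 in mCherry. All 3 myr-SetB arrays and all 3 wt-SetB arrays lay below all 3 mCherry arrays, whereas myr-SetB and wt-SetB overlapped. Replicates 1 and 2 of myr-SetB also lay below the odorant receptor median, at -0.53 and -0.14 from it, and every other array lay above it. Signal near this mark limits what the myr-SetB level can show. The group levels were 7.31 ± 0.25 in myr-SetB, 7.75 ± 0.34 in wt-SetB and 8.48 ± 0.47 in mCherry (SD, n = 3 each). In bulk RNA, fewer Tenm3-expressing cells and less Tenm3 RNA per cell cannot be told apart.

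The difference that led to the choice of the set, myr-SetB minus mCherry, was -1.17 ± 0.28 (SE) on the log2 scale in the brighter Tenm3 cluster, which is 0.444 times the mCherry level. It lay at the 1st percentile of all differences tested in that comparison.

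**Figure D1:**
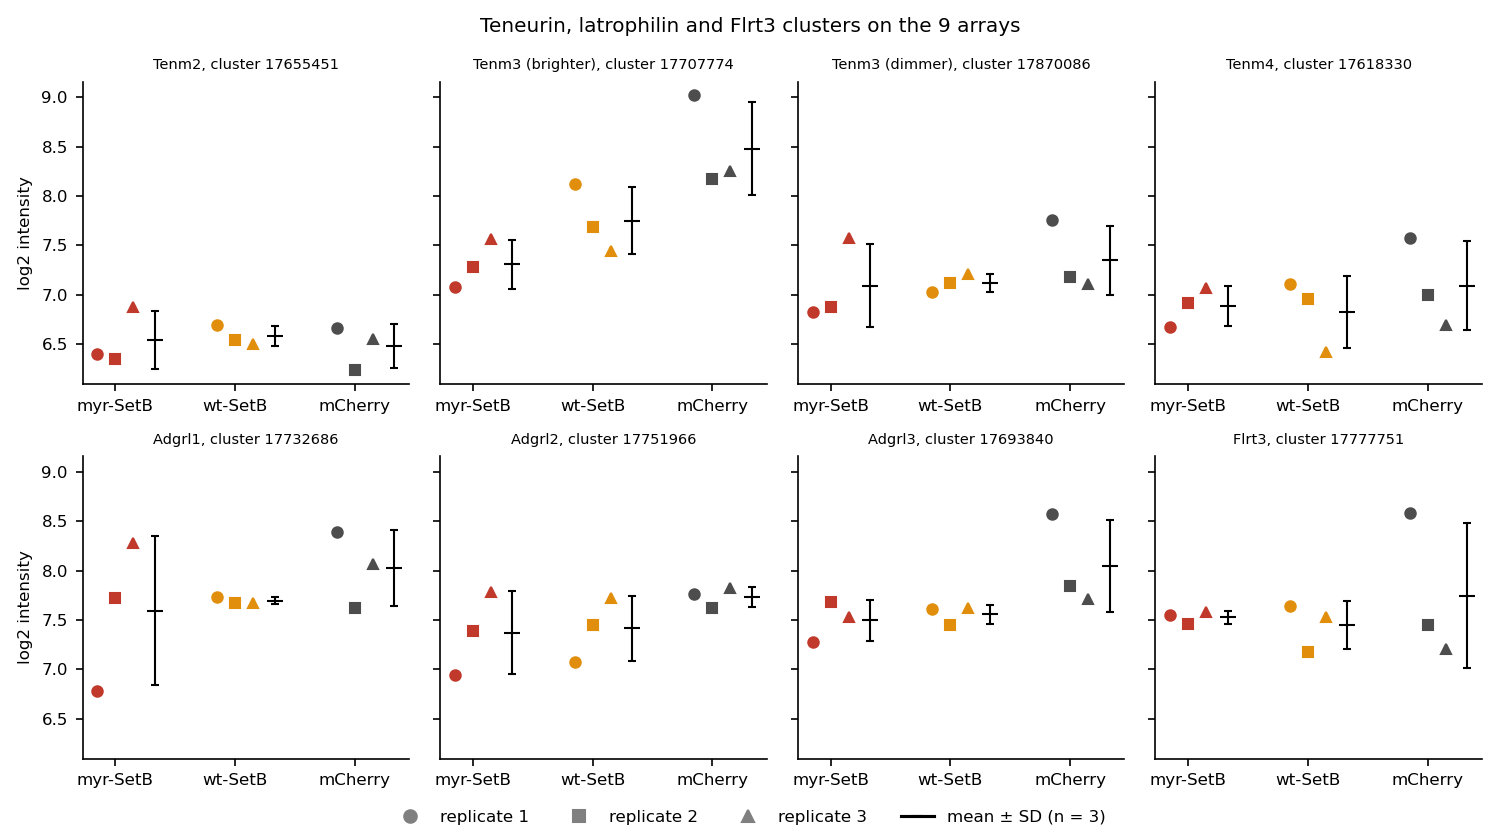
Log2 intensity of each of the 8 clusters on each array, by group; symbols mark the replicate and the bars the mean ± SD of 3 arrays. The brighter Tenm3 cluster lies between 7.08 and 7.57 in myr-SetB, between 7.45 and 8.12 in wt-SetB and between 8.17 and 9.02 in mCherry, while most other clusters overlap between groups.

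In the comparison not used for the choice, wt-SetB minus mCherry, the brighter Tenm3 cluster differed by -0.73 ± 0.28 (SE), which is 0.603 times the mCherry level and has a 95% interval of -1.36 to -0.10. It did not pass limma's test (adjusted p = 0.447, Benjamini-Hochberg over 18343 clusters). The same 3 mCherry arrays served in both comparisons, so the p-value and interval for wt-SetB are not independent of the choice. Between the 2 forms of Set-β, myr-SetB minus wt-SetB, the difference was -0.44 ± 0.28 (SE). That comparison uses the myr-SetB arrays on which the set was selected, so its member values are a description too. Without mCherry replicate 1 the wt-SetB difference was -0.46, and without wt-SetB replicate 1 the difference between the forms was -0.26.

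Ranks within an array do not depend on its scaling. The brighter Tenm3 cluster lay at the 65.2, 68.2 and 72.4 percentiles of all clusters in myr-SetB replicates 1, 2 and 3, at 85.9, 78.2 and 73.3 in wt-SetB and at 90.9, 84.9 and 83.1 in mCherry. By rank the myr-SetB arrays therefore lay below all arrays of both other groups, and wt-SetB and mCherry overlapped. After quantile normalization the differences were -0.97 for myr-SetB minus mCherry, -0.46 for wt-SetB minus mCherry and -0.51 for myr-SetB minus wt-SetB. With cyclic loess they were -0.94, -0.50 and -0.44.

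The dimmer Tenm3 cluster (17870086) had 6.82, 6.87 and 7.58 in myr-SetB replicates 1, 2 and 3, 7.03, 7.12 and 7.21 in wt-SetB and 7.75, 7.18 and 7.11 in mCherry. All 3 groups overlapped, and 6 of the 9 arrays lay below the odorant receptor median. The difference was -0.26 ± 0.25 (SE) for myr-SetB minus mCherry and -0.23 ± 0.25 for wt-SetB minus mCherry. The wt-SetB difference did not pass limma's test (adjusted p = 0.613), with a 95% interval of -0.81 to 0.35 that also holds the -0.73 of the brighter cluster. The difference between the forms of Set-β was -0.03 ± 0.25. Without mCherry replicate 1 the difference was -0.05 for myr-SetB and -0.03 for wt-SetB, and without myr-SetB replicate 3 it was -0.50 for myr-SetB. The sources used here do not say which parts of the Tenm3 transcript the clusters probe.

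**Figure D2:**
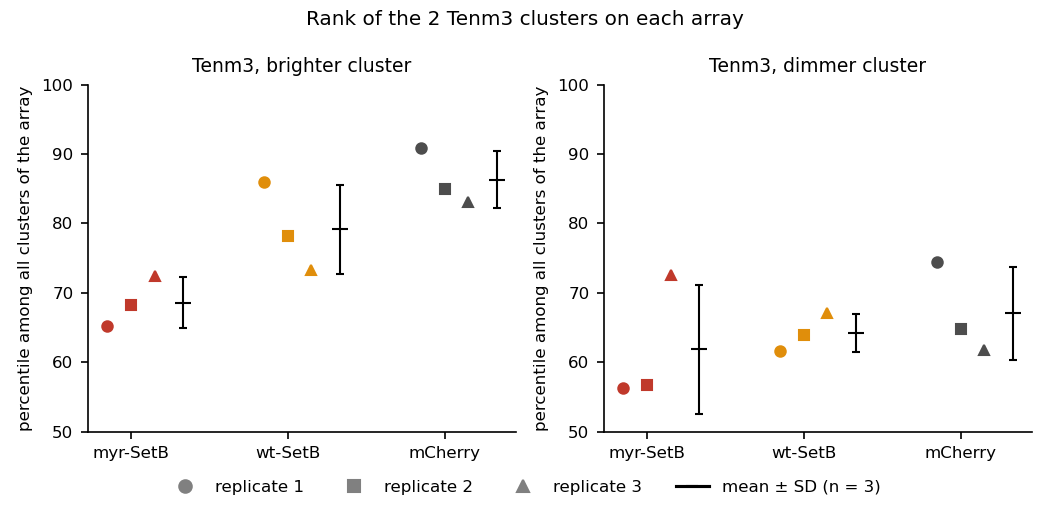
The 2 Tenm3 clusters by group, each as its percentile among all clusters of the same array, with bars for mean ± SD of 3 arrays. The brighter cluster lies at percentiles 65.2 to 72.4 in myr-SetB, 73.3 to 85.9 in wt-SetB and 83.1 to 90.9 in mCherry, and the dimmer one at 56.3 to 72.6 in myr-SetB, 61.6 to 67.1 in wt-SetB and 61.8 to 74.5 in mCherry.

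Of the other teneurins, Tenm4, which in mice acts in oligodendrocyte differentiation and myelination, had 6.67, 6.92 and 7.06 in myr-SetB replicates 1, 2 and 3, 7.11, 6.96 and 6.42 in wt-SetB and 7.58, 7.00 and 6.69 in mCherry. The 3 groups overlapped. Its difference was -0.20 ± 0.27 (SE) for myr-SetB minus mCherry and -0.26 ± 0.27 for wt-SetB minus mCherry (limma adjusted p = 0.589 for wt-SetB). Without mCherry replicate 1 the difference was 0.04 for myr-SetB and -0.02 for wt-SetB, and without wt-SetB replicate 3 it was -0.06 for wt-SetB. Without mCherry replicate 3 it was -0.40 for myr-SetB and -0.46 for wt-SetB. Tenm4 lay below the odorant receptor median on 7 of the 9 arrays.

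Tenm2, which acts in the mapping of the same-side retinal projection in mice, had 6.40, 6.35 and 6.88 in myr-SetB replicates 1, 2 and 3, 6.69, 6.54 and 6.50 in wt-SetB and 6.67, 6.23 and 6.55 in mCherry. The groups overlapped, and all 9 arrays lay below the odorant receptor median. The Tenm2 mean of 6.54 over the arrays fell under the level filter of 6.65, so Tenm2 was not tested. A cluster under that filter is likely to fall below a mark taken from clusters past it. Tenm2 lay 0.46 to 1.44 above the median of all 1128 odorant receptor clusters. The difference was 0.06 ± 0.19 (SE) for myr-SetB minus mCherry and 0.10 ± 0.19 for wt-SetB minus mCherry.

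Among the latrophilins, Adgrl3, the receptor that binds FLRT3 with high affinity, had 7.28, 7.68 and 7.53 in myr-SetB replicates 1, 2 and 3, 7.61, 7.45 and 7.62 in wt-SetB and 8.57, 7.85 and 7.71 in mCherry. Every myr-SetB and wt-SetB array lay below every mCherry array, although mCherry replicate 3 was only slightly above the highest of them. By rank within the array each Set group overlapped mCherry. There mCherry replicate 3 lay at the 74.7 percentile, below myr-SetB replicate 2 at 78 and wt-SetB replicate 3 at 77.2. The levels were 7.50 ± 0.20 in myr-SetB, 7.56 ± 0.10 in wt-SetB and 8.05 ± 0.46 in mCherry (SD, n = 3 each). The difference was -0.55 ± 0.24 (SE) for myr-SetB minus mCherry and -0.49 ± 0.24 for wt-SetB minus mCherry, and the wt-SetB difference did not pass limma's test (adjusted p = 0.447). Without mCherry replicate 1 the difference was -0.28 for myr-SetB and -0.22 for wt-SetB.

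Adgrl1, the receptor for the black widow toxin α-latrotoxin, had 6.78, 7.72 and 8.28 in myr-SetB replicates 1, 2 and 3, 7.74, 7.67 and 7.67 in wt-SetB and 8.39, 7.62 and 8.07 in mCherry. The myr-SetB arrays spanned nearly the whole range of the 9, and all groups overlapped. The signal range of the same myr-SetB arrays was 3.82, 4.18 and 4.46, and its part in the Adgrl1 values was not tested. The difference was -0.43 ± 0.36 (SE) for myr-SetB minus mCherry, -0.03 without myr-SetB replicate 1 and -0.77 without myr-SetB replicate 3. For wt-SetB minus mCherry it was -0.33 ± 0.36 (limma adjusted p = 0.602), -0.15 without mCherry replicate 1 and -0.53 without mCherry replicate 2.

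Adgrl2, which in the mouse hippocampus takes part with Tenm3 in the sorting of axon targets, had 6.94, 7.39 and 7.78 in myr-SetB replicates 1, 2 and 3, 7.07, 7.45 and 7.72 in wt-SetB and 7.76, 7.62 and 7.82 in mCherry. The mCherry arrays were close together at 7.73 ± 0.10 (SD, n = 3), and each of the other groups reached into their range. The difference was -0.36 ± 0.25 (SE) for myr-SetB minus mCherry and -0.32 ± 0.25 for wt-SetB minus mCherry (limma adjusted p = 0.501 for wt-SetB). Without myr-SetB replicate 1 the myr-SetB difference was -0.15, and without myr-SetB replicate 3 it was -0.57. Without wt-SetB replicate 1 the wt-SetB difference was -0.15.

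Flrt3, the ligand of latrophilins and Unc5 receptors, had 7.55, 7.46 and 7.58 in myr-SetB replicates 1, 2 and 3, 7.64, 7.17 and 7.53 in wt-SetB and 8.58, 7.45 and 7.21 in mCherry. A single array, mCherry replicate 1, stood above the rest, and the groups overlapped. The difference was -0.22 ± 0.33 (SE) for myr-SetB minus mCherry and -0.30 ± 0.33 for wt-SetB minus mCherry (limma adjusted p = 0.609 for wt-SetB). Without mCherry replicate 1 the direction turned, to 0.20 for myr-SetB and 0.12 for wt-SetB.

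**Figure D3:**
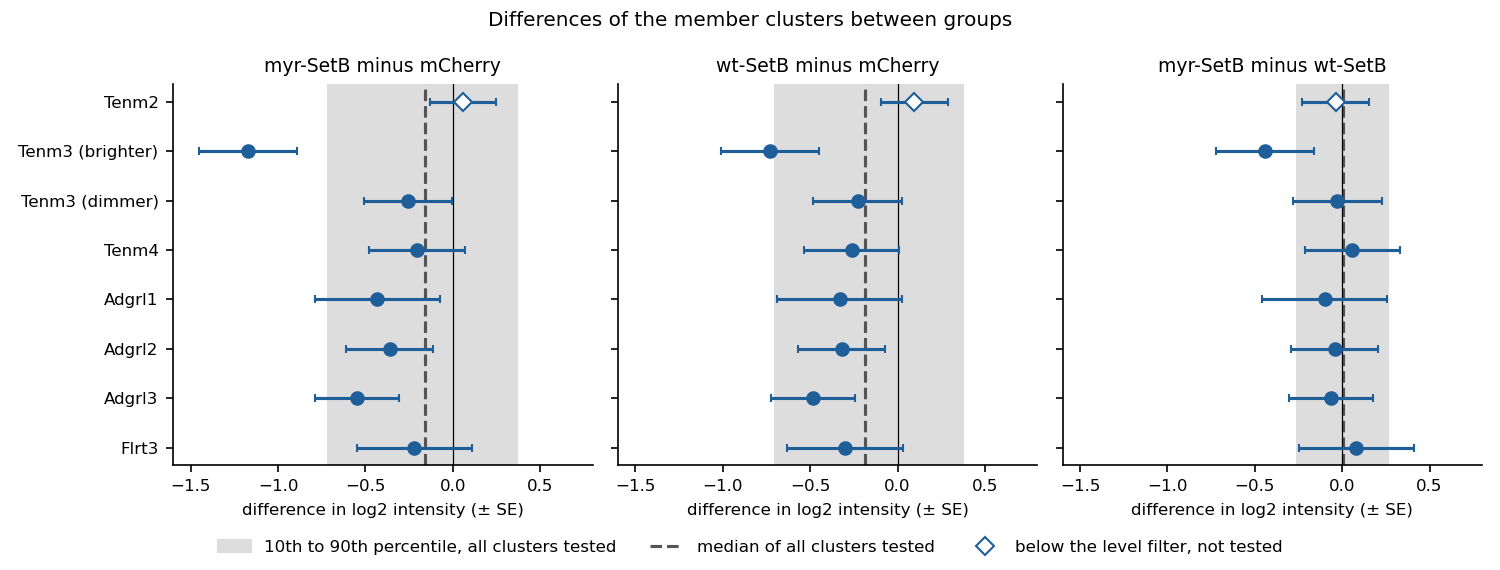
Difference in log2 intensity of each cluster (± SE) for the 3 comparisons, with the median (dashed) and the range between the 10th and 90th percentiles (shaded) of all 18343 clusters tested; the open symbol is Tenm2, below the level filter. The brighter Tenm3 cluster is the lowest of the 8 in each comparison, at -1.17, -0.73 and -0.44, and the other 7 lie inside the shaded range.

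Over the set, 7 of the 8 clusters passed the level filter, and in wt-SetB minus mCherry 0 of these 7 passed limma's adjusted p of 0.05, as did 0% of all 18343 clusters. At an unadjusted p under 0.05 there was 1 of the 7, the brighter Tenm3 cluster, against 1865 clusters in all (10.2%). That cluster gave the set its selection, on the same mCherry arrays. The 7 had a median difference of -0.32, against -0.18 over all clusters and -0.29 over those with 1 symbol, as the members have. Below 0 were 7 of 7, against 65.5% of all clusters, with or without a symbol. The share among clusters with 1 symbol, whose median is lower, is not given here. In 2 of the 7, the brighter Tenm3 cluster and Adgrl3, the wt-SetB arrays lay below the mCherry arrays without overlap. The same was true of 26.4% of all clusters, so the share in the set is near the background. Higher without overlap were 0 of 7, against 7.31% of all clusters. After quantile normalization and after cyclic loess no member was without overlap (0 of 7). Of all 18343 clusters 2137 were lower and 2521 higher without overlap after quantile normalization. After cyclic loess 2224 were lower and 2484 higher.

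In myr-SetB minus mCherry the median of the 7 was -0.36, against -0.16 over all clusters and -0.26 over those with 1 symbol. By limma 0% of all clusters passed the adjusted p of 0.05. At an unadjusted p under 0.05 it was 9.79% of all clusters. The brighter Tenm3 cluster and Adgrl3 were again the 2 of 7 that were lower without overlap, against 6.85% of all clusters, and 0 of 7 were higher without overlap, against 4.55%. The rule used this comparison, and nothing is read from these counts. In myr-SetB minus wt-SetB the median of the 7 was -0.04, against 0.01 over all clusters. By limma 0% of all clusters passed the adjusted p, and 1.13% had an unadjusted p under 0.05. In the same comparison 0 of 7 members were without overlap, against 1.76% of all clusters lower and 2.63% higher. After quantile normalization or cyclic loess 1 of 7, the brighter Tenm3 cluster, was lower without overlap. Of all clusters tested in that comparison, 470 were lower and 400 higher without overlap after quantile normalization. After cyclic loess 409 were lower and 473 higher. The brighter Tenm3 cluster gave the set its selection, on the same myr-SetB arrays, so its place among these clusters is a description.

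The myr-SetB mean was the lowest of the 3 group means in 5 of the 7 clusters past the filter, both Tenm3 clusters, Adgrl1, Adgrl2 and Adgrl3, against 34.1% of all clusters tested. The wt-SetB mean was lowest in the other 2, Tenm4 and Flrt3, against 36.9%. The mCherry mean was highest in 7 of 7, against 58.5% of all clusters. These shares are over clusters with or without a symbol, whereas every member has 1. This order includes the comparison used for the choice and is a description. Neighbouring means in this order differed by less than the pooled within-group SD except in 3 clusters. These were the brighter Tenm3 cluster, at both steps, and Adgrl2 and Adgrl3, between wt-SetB and mCherry. Single arrays weighed on the order. mCherry replicate 1 was the highest of the 9 arrays in 6 of the 8 clusters (29.7% of all clusters tested), and myr-SetB replicate 1 was the lowest in 5 of the 8 (36.9% of all clusters). The differences without each array are plotted for Tenm3 and Adgrl3.

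**Figure D4:**
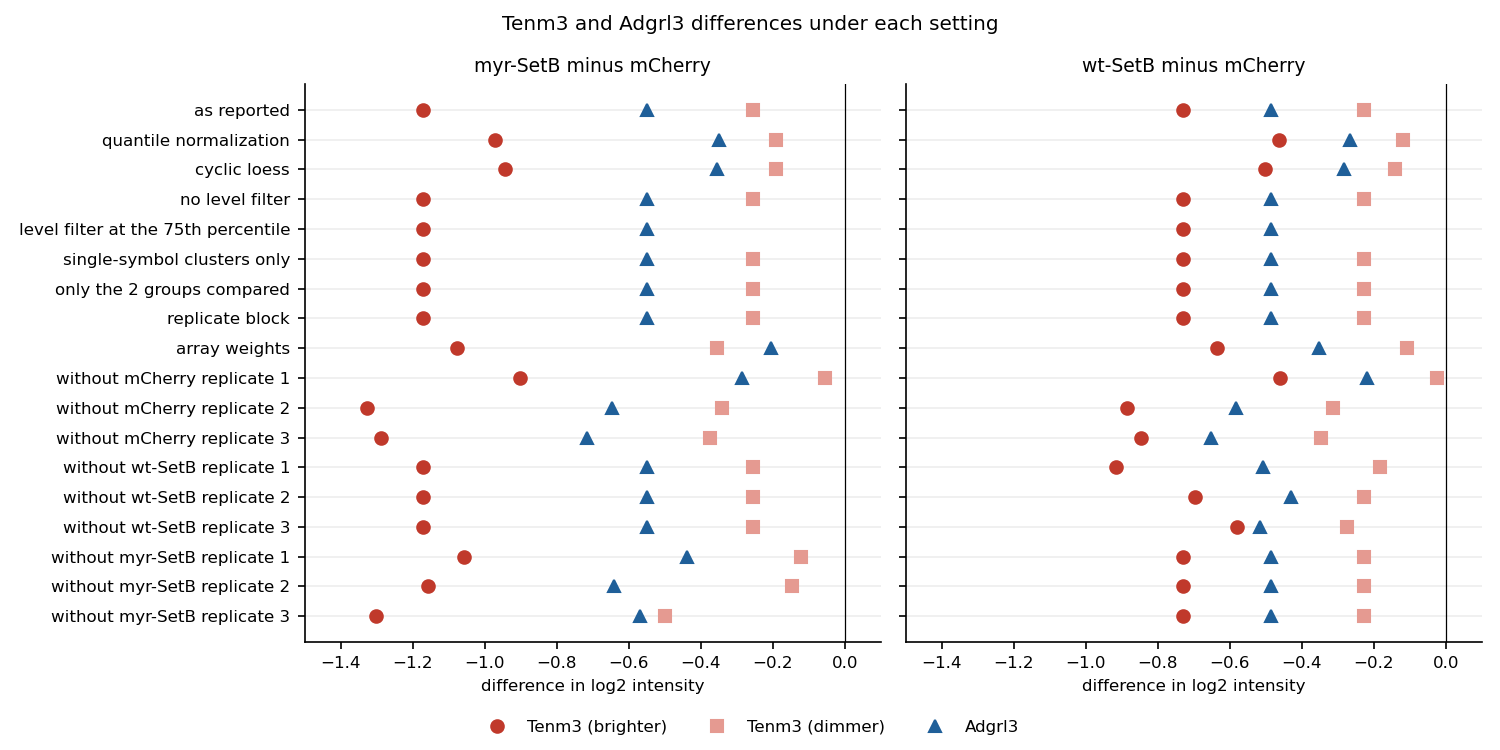
Difference in log2 intensity of the 2 Tenm3 clusters and Adgrl3 under each setting of the processing, for myr-SetB minus mCherry (left) and wt-SetB minus mCherry (right). The brighter Tenm3 cluster stays between -1.33 and -0.90 in the left panel and between -0.92 and -0.46 in the right one; the dimmer Tenm3 cluster has no value at the stricter level filter.

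Genes whose products bind these proteins or carry their signals were examined as a list of 26, of which 24 had a cluster and 18 passed the level filter. By limma 0 of 18 passed the adjusted p of 0.05 in any of the 3 comparisons. At an unadjusted p under 0.05 there was 1 of 18 in wt-SetB minus mCherry, against 10.2% of all clusters, 0 in myr-SetB minus mCherry, against 9.79%, and 0 in myr-SetB minus wt-SetB, against 1.13%. The wt-SetB arrays lay below the mCherry arrays without overlap in 6 of 18, Flrt1, Unc5a, Nrxn2, Shank2, Gna12 and Gnaq, against 26.4% of all clusters. The myr-SetB arrays did so in 1 of 18, Flrt1, against 6.85%. The median difference of the 18 was -0.28 for myr-SetB minus mCherry, against -0.16 over all clusters, and -0.28 for wt-SetB minus mCherry, against -0.18. Over the clusters with 1 symbol, as the partners have, the medians were -0.26 and -0.29. Below 0 were 16 of 18 in myr-SetB minus mCherry, against 63.9% of all clusters, and 17 of 18 in wt-SetB minus mCherry, against 65.5%. Both shares are over clusters with or without a symbol, and those among clusters with 1 symbol are not given here. In myr-SetB minus wt-SetB the median was 0.06, with 8 of 18 below 0, against 48.5% of all clusters.

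Among the ligands, Flrt2, which like Flrt3 binds latrophilins and Unc5 receptors, had 7.48 ± 0.91 in myr-SetB, 7.59 ± 0.25 in wt-SetB and 8.18 ± 0.59 in mCherry (SD, n = 3 each), and the groups overlapped. Flrt1 had 6.78 ± 0.08 in myr-SetB, 6.88 ± 0.02 in wt-SetB and 7.16 ± 0.30 in mCherry, without overlap between any 2 groups, but it lay below the odorant receptor median on 8 of the 9 arrays. Its difference of -0.28 ± 0.18 (SE) for wt-SetB minus mCherry did not pass limma's test (adjusted p = 0.459). The Unc5 receptors, which take FLRT and netrin ligands, differed by -0.29 ± 0.17 (Unc5a), -0.24 ± 0.21 (Unc5c) and 0.09 ± 0.24 (Unc5d) for wt-SetB minus mCherry. The neurexin Nrxn2, of a presynaptic family that binds Adgrl1, differed by -0.33 ± 0.24 and Nrxn3 by -0.44 ± 0.29.

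Behind the receptors, Gnaq, a G protein α subunit, had 8.13 ± 0.76 in myr-SetB, 7.98 ± 0.02 in wt-SetB and 8.84 ± 0.30 in mCherry (SD, n = 3 each). Its wt-SetB arrays lay below the mCherry arrays, with a difference of -0.86 ± 0.35 (SE), the only one of the list past limma's unadjusted threshold. It did not pass after adjustment (limma adjusted p = 0.447). Gna12 and Gna13, also G protein α subunits, differed by -0.34 ± 0.21 and -0.28 ± 0.32 for wt-SetB minus mCherry, and Gnas by -0.02 ± 0.16. The postsynaptic scaffold genes Shank1, Shank2 and Shank3, whose products bind latrophilin tails, ranged from -0.31 (Shank2) to -0.16 (Shank3). Dag1, which encodes dystroglycan, differed by -0.51 ± 0.36.

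**Figure D5:**
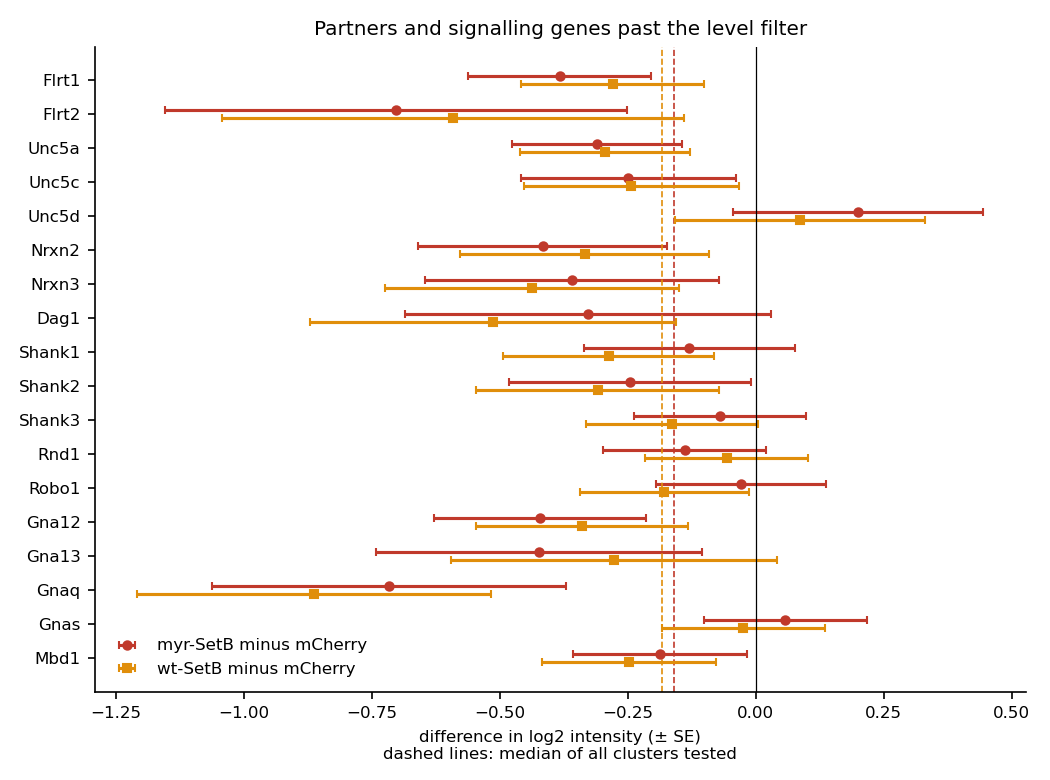
Difference in log2 intensity (± SE) of the 18 partner and signalling genes past the level filter, for myr-SetB minus mCherry and wt-SetB minus mCherry, with dashed lines at the median of all clusters tested. Gnaq, at -0.72 and -0.86, and Flrt2, at -0.70 and -0.59, lie lowest, and Unc5d lies above 0 in both.

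The pattern of the brighter Tenm3 cluster over the 9 arrays was also set against 10707 other clusters with 1 symbol, each centred on its own mean. The closest by root mean square difference were Hspa4l, a heat shock chaperone gene (0.16), Rp9 (0.16), Tac1, the precursor of the neuropeptide substance P (0.18), Emb, an adhesion glycoprotein (0.18), and Dnm3, a neuronal dynamin (0.19). Hspa4l had group means of 8.07 in myr-SetB, 8.51 in wt-SetB and 9.13 in mCherry, and Tac1 had 7.17 in myr-SetB, 7.55 in wt-SetB and 8.02 in mCherry. Of the set itself Adgrl3 came closest, at 0.32, with 6.42% of the other clusters closer. The dimmer Tenm3 cluster was at 0.44, with 29.5% closer, and Tenm2 at 0.55, with 58.7% closer. All points share the same arrays and their scaling, and the likeness is a description.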

How the data were processed

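The labels' protocols describe RNA from sorted cells. Per the series' design text, it was amplified, biotin-labelled and hybridised to Affymetrix arrays. RMA and Affymetrix Expression Console stand in the submitters' processing notes (no version is given), and per the design text the authors scaled each sample to its median. The deposited values are intensity on a linear scale. There is no read depth on arrays, so precision is limited by how many there are.

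Symbols came from the platform annotation (18511 clusters with 1 symbol, 575 with several, 17599 with none), with 18394 identifiers matched to RefSeq. The start regions are from RefSeq, assembly GRCr8. No source used here gives the genome build of the array.

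Intensities were log2-transformed, and a single model of group means was fitted to the 9 arrays (R 4.3.3, limma 3.58.1, lmFit and eBayes, two-sided, 6 residual and 2.82 prior degrees of freedom). The level filter dropped clusters whose mean was under 6.65, the median over clusters. Simulated data with independent noise held 18343 clusters, with 100 shifted at each of 2 sizes. For wt-SetB minus mCherry the fit called 26% of the clusters shifted by 1 on the log2 scale and 65% of those shifted by 2. There were 6 false calls. Deviations in the real arrays were correlated, and the shares called depend on how many clusters are shifted, so they need not hold for these data.

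The members, the partner and marker lists and the tests were chosen with earlier results of these data known. Every member cluster is named, partner and marker genes are represented by their cluster of highest mean, and the 5 clusters most like the brighter Tenm3 cluster are named by root mean square difference. The motifs were chosen after seeing the data. Member p-values are given only for wt-SetB minus mCherry. That comparison shares the mCherry arrays with the one used for the choice, so its p-values are not independent of the choice. Both other comparisons use the myr-SetB arrays, on which the set was also selected, and are given without member p-values. Replicate numbers were checked as pairs. Deviations from the group means correlated between -0.07 and 0.38 for same-numbered arrays and between -0.40 and 0.36 for different-numbered ones. All same-numbered values except that of mCherry and myr-SetB replicate 1 were above 0. These values do not settle whether the numbers are pairs. The reported fit did not use them as pairs, and a fit with the replicate block is among the alternatives.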

Additional observations from a re-analysis of the deposited data

How the results depend on the processing

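Under 17 alternatives (quantile normalization, cyclic loess, other level filters, single-symbol clusters, a fit of only the 2 groups compared, the replicate block, array weights and each array left out) both Tenm3 clusters, Adgrl1, Adgrl2 and Adgrl3 kept their direction against mCherry in both Set groups, wherever they were tested, but not their size: leaving out single arrays brought the dimmer Tenm3 cluster to -0.03 for wt-SetB minus mCherry and -0.05 for myr-SetB minus mCherry, and Adgrl1 to -0.03 for myr-SetB minus mCherry. The counts of clusters past limma's adjusted p of 0.05 stayed at 0 except with array weights, whose fit did not fully converge: 5903 clusters for myr-SetB minus mCherry, 1 of them a member (the brighter Tenm3 cluster, -1.08, in the comparison that selected it, so that this restates the choice), and 1270 for myr-SetB minus wt-SetB. With the replicate block no call changed, and the brighter Tenm3 cluster had an adjusted p of 0.428 for wt-SetB minus mCherry. Over the alternatives its adjusted p in that comparison ran from 0.0829 to 0.724. Clusters at an unadjusted p under 0.05 numbered 882 to 6279 for wt-SetB minus mCherry (1865 as reported), 639 to 8627 for myr-SetB minus mCherry (1796) and 52 to 4514 for myr-SetB minus wt-SetB (208). For wt-SetB minus mCherry, 4835 clusters were lower and 1340 higher without overlap, but 2137 lower and 2521 higher after quantile normalization and 2224 lower and 2484 higher with cyclic loess.

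Some member differences turned. Without mCherry replicate 1, Flrt3 was 0.12 for wt-SetB minus mCherry and 0.20 for myr-SetB minus mCherry, and Tenm4 was 0.040 for myr-SetB minus mCherry (0.013 with array weights). Over the arrays left out the lowest values of these 3 differences were -0.57, -0.49 and -0.40. The other turns were in myr-SetB minus wt-SetB, where values were near 0. With array weights Adgrl1 was 0.033 and Adgrl3 0.15. Without wt-SetB replicate 2 Flrt3 was -0.056, and without wt-SetB replicate 3 the dimmer Tenm3 cluster was 0.02, Tenm4 -0.15 and Adgrl2 0.11. Without myr-SetB replicate 1 the dimmer Tenm3 cluster was 0.11, Adgrl1 0.31, Adgrl2 0.17 and Adgrl3 0.047. Over the arrays left out the lowest values of the dimmer Tenm3 cluster, Adgrl1 and Adgrl2 were -0.27, -0.44 and -0.25, and the highest of Flrt3 was 0.18. The dimmer Tenm3 cluster was 0.08 without myr-SetB replicate 2, and Tenm4 -0.03 without myr-SetB replicate 3. Tenm2, not tested, changed sign in some settings in each comparison. The causes were not tested. At the stricter level filter Tenm4, Adgrl2 and the dimmer Tenm3 cluster could not be tested. Signal near the odorant receptor median limits what Tenm2, Tenm4, the dimmer Tenm3 cluster and the myr-SetB level of the brighter Tenm3 cluster can show.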
